A study of Sus scrofa with 9 samples.

Results

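Macrophages take up modified lipoproteins through scavenger receptors and become foam cells, and 9 genes of this step were followed here in the aorta of pigs on a cholesterol-rich diet. The genes were listed by name: the scavenger receptors OLR1, MSR1, MARCO and CD36, the lipid-sensing receptor TREM2, the endosomal and lysosomal membrane glycoproteins CD68 and GPNMB, the galectin LGALS3 and the lipid droplet protein PLIN2. They are 9 of the 21357 genes in the table, and all 9 were found in it. For 8 of them the table gives the symbol, and CD36 was found through the gene number in its description.

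The libraries came from the end of the abdominal aorta of Tibetan minipigs, a small pig breed, and fall into 3 groups of 3. NC pigs ate a normal diet for 24 weeks, H8 pigs a high-fat/cholesterol (HFC) diet for 8 weeks (labelled hypercholesterolemia) and H24 pigs the same kind of diet for 24 weeks (labelled atherosclerosis). The study's methods describe the NC and H24 pigs as males bought at a few months of age, of which 3 of 5 per group were sequenced. The methods do not describe the H8 pigs, so the time on the diet and the age at sampling cannot be told apart for H8. The tissue is the whole vessel wall, and the extraction protocol in the labels speaks of an adipose type. No allele, transgene or drug is named for any group, and each library is taken as 1 pig, as the labels give separate replicate numbers.

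Scavenger receptors bind oxidised or acetylated low-density lipoprotein (LDL), which the LDL receptor does not recognise well, and their uptake is not shut off when the cell fills with cholesterol. Endocytosed lipoprotein reaches lysosomes, its cholesterol is re-esterified, and the esters are stored in lipid droplets coated by perilipins such as PLIN2. In arterial plaques TREM2, GPNMB and LGALS3 are known from the lipid-laden macrophages, and LGALS3, OLR1 and CD36 are also made by other cells of the vessel wall.

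The total was between 44094263 and 75787978 estimated counts per library, lowest in H24 replicate 2, and a floor of 3 counts was 0.0396 to 0.0680 CPM (counts scaled to library size), counting error only. H24 replicate 3 stands apart from the other libraries: its Pearson's r of log2 CPM across genes was 0.739 to 0.872 with the other 8 libraries, against 0.899 to 0.964 in the 28 other pairs. Levels below are FPKM (fragments scaled to transcript length and library size), which is per length and can be compared between genes. The summed FPKM of 8 smooth muscle markers was 12042 to 14137 in NC, 10241 to 13832 in H8 and 8277, 12129 and 1766 in H24 replicates 1 to 3. Of 12 macrophage markers, 11 were matched and none was at 0 in every library. Their summed FPKM was 29.2 to 45.3 in NC, 236, 47.4 and 117 in H8 and 406, 257 and 2583 in H24 replicates 1 to 3. The summed FPKM of 7 T cell markers was 0.288 to 0.552 in NC, 0.998 to 1.04 in H8 and 3.54, 17.8 and 16.0 in H24, and that of 6 neutrophil markers was 0.518 to 0.586 in NC, 3.05 to 4.49 in H8 and 7.95, 5.15 and 62.0 in H24. The fold changes, calls and mean levels of the 9 genes in H24 are therefore given with and without H24 replicate 3, while the plots and the ratios within libraries include it. In bulk tissue, more cells of a type and more RNA per cell cannot be told apart.

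**Figure D1:**
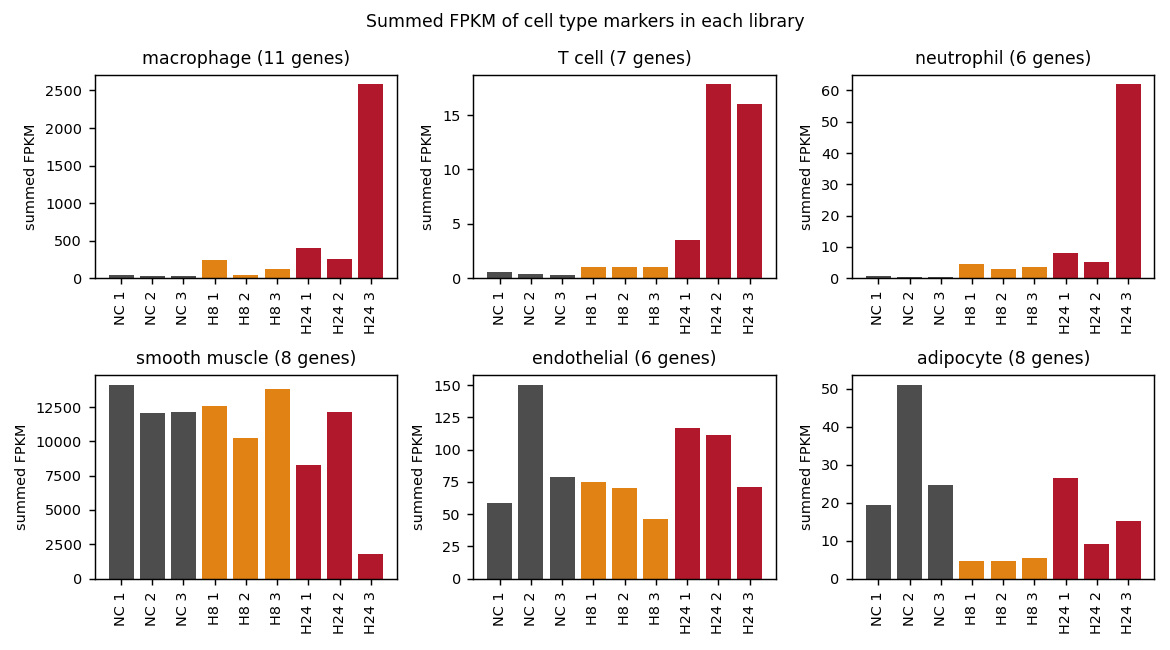
Summed FPKM (linear axes from 0) of 6 cell type marker lists in each of the 9 libraries, coloured by group (grey NC, orange H8, red H24). The macrophage sum is highest in H24 replicate 3 (2583), the same library in which the smooth muscle sum is lowest (1766).

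After 24 weeks of the HFC diet 7 of the 9 genes were up-regulated against NC: OLR1, MSR1, MARCO, TREM2, CD68, GPNMB and LGALS3. Up-regulated here means a log2 fold change above 1 with an unadjusted p under 0.05 from edgeR's quasi-likelihood test. Of all 14828 genes tested in H24/NC, 9.95% met this and 1.52% met the same rule for lower levels, which no member did. MARCO was at 0 counts in NC and passed the filter on low values only through H24, so it had to be higher there, and 6 of the other 8 members were up-regulated. After 8 weeks, 6 of the 8 members tested in H8/NC were up-regulated (all of the above but MARCO, which was under the filter on low values), and none was down-regulated, where 5.11% and 2.27% of the 14336 genes tested were. Between 8 and 24 weeks 5 of the 9 were up-regulated in H24/H8 (OLR1, MSR1, CD68, GPNMB and LGALS3) and none was down-regulated, where 7.22% and 3.05% of the 14788 genes tested were. CD36 and PLIN2 were called in none of the 3 comparisons.

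None of the 9 passed a Benjamini-Hochberg adjusted p under 0.05 over all genes in edgeR's quasi-likelihood test. Few genes did: 0% of those tested in H24/NC, 0.0279% in H8/NC and 0.0135% in H24/H8. The adjusted p of the members ran from 0.129 to 0.694 in H24/NC, from 0.143 to 0.975 in H8/NC and from 0.341 to 0.648 in H24/H8, while 7, 6 and 5 members had an unadjusted p under 0.05. DESeq2 on the same counts put 6, 6 and 2 members past its adjusted threshold, as it did 6.37%, 4.30% and 4.50% of all genes tested. Its 6 in H24/NC include MARCO, which is at 0 in NC and had to be higher in H24. They leave out GPNMB, for which DESeq2 gave no p. The median log2 fold change of the tested members was 5.60 in H24/NC, 2.35 in H8/NC and 2.76 in H24/H8, against 0.01, 0.01 and 0.04 over all genes tested. The medians of H24/NC and H24/H8 include MARCO (9.48 and 3.34). Leaving out H24 replicate 3 gave medians of 3.39 in H24/NC and 0.61 in H24/H8, against -0.02 and -0.002 over all genes. These are over the 8 members then tested, without MARCO. The 3 comparisons share libraries, so they are not independent of each other.

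**Figure D2:**
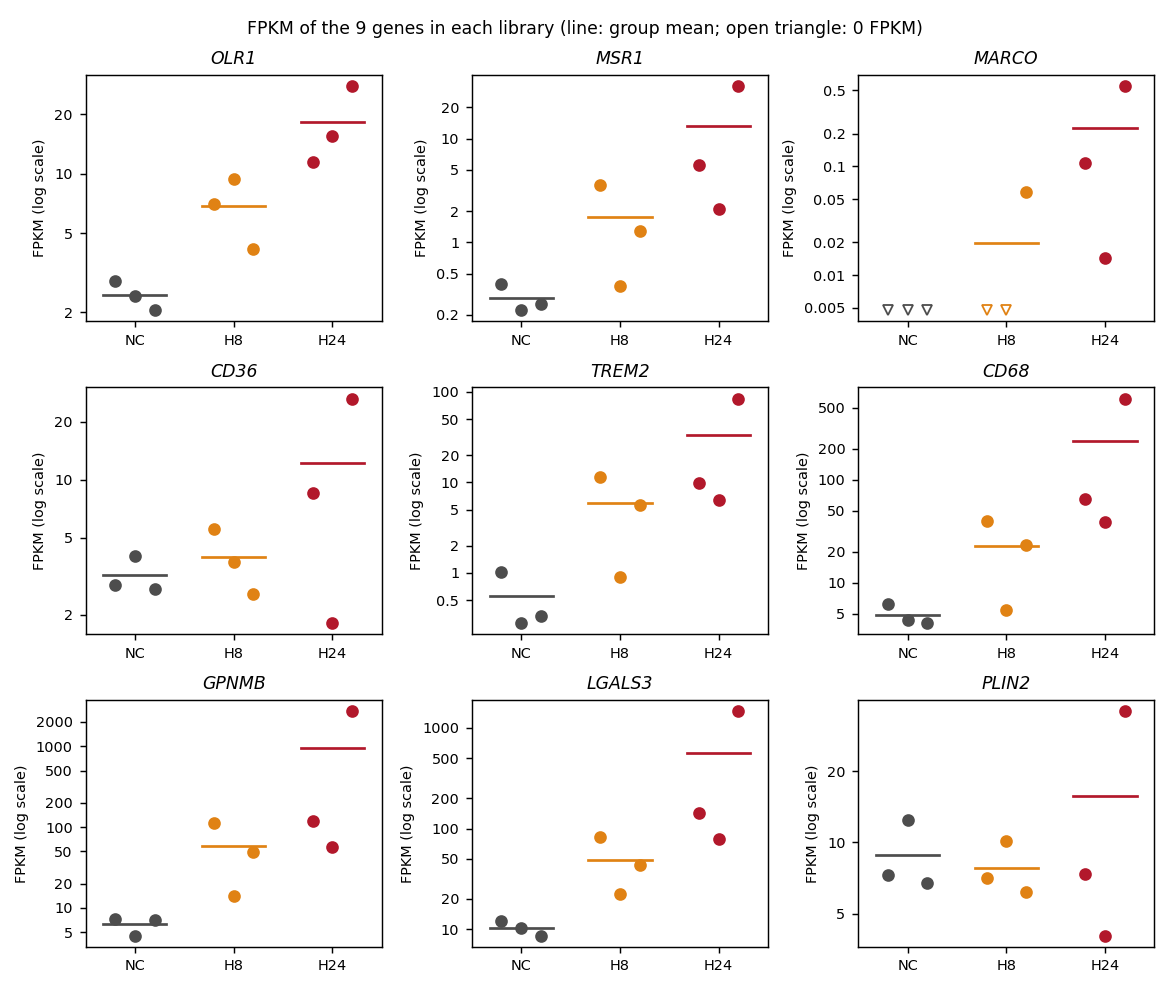
FPKM of each of the 9 genes (log axis) in the 3 libraries of NC, H8 and H24, with the group mean as a line and 0 FPKM as an open triangle at the foot of the panel. H24 replicate 3 is the highest point in every panel, and in 7 panels all 3 H24 points lie above all NC points, the exceptions being CD36 and PLIN2.

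OLR1 (LOX-1), the receptor for oxidised LDL first known from endothelium, was up-regulated in all 3 comparisons. The gene (ENSSSCG00000000647, Sscrofa11.1 chr5:61799356-61809691, plus strand) had 2.88, 2.40 and 2.05 FPKM in NC replicates 1 to 3, 7.09, 9.48 and 4.15 in H8 and 11.5, 15.6 and 28.0 in H24. All H8 libraries lay above all NC libraries and all H24 libraries above all H8 libraries, and OLR1 was the only member whose 3 groups did not overlap. Its log2 fold change was 1.66 (SE 0.38, edgeR adjusted p = 0.19) in H8/NC and 2.89 (SE 0.41, edgeR adjusted p = 0.13) in H24/NC, the smallest adjusted p of a member in that comparison. In H24/H8 it was 1.19 (SE 0.46, 95% interval 0.10 to 2.29). With H24 replicate 3 left out it was 2.45 in H24/NC and 0.78 in H24/H8. The H24/H8 call was lost then, and also without H8 replicate 1 (1.18), H8 replicate 3 (0.90) or H24 replicate 2 (1.26).

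MSR1 encodes the class A scavenger receptor, a trimeric receptor of macrophages for acetylated LDL. The gene (ENSSSCG00000006979, chr17:3857171-3939614, minus strand) had 0.39, 0.22 and 0.25 FPKM in NC, 3.54, 0.38 and 1.3 in H8 and 5.62, 2.10 and 32.3 in H24. H8 replicate 2 lay within the NC range, while every H24 library was above every NC library. MSR1 had a log2 fold change of 2.68 (SE 0.72, edgeR adjusted p = 0.21) in H8/NC and 5.50 (SE 1.08, edgeR adjusted p = 0.13) in H24/NC. The H24/NC value was 3.69 without H24 replicate 3 and the H8/NC value 1.63 without H8 replicate 1, both still called.

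MARCO, a class A scavenger receptor that binds bacteria as well as modified LDL, was barely detected. The gene (ENSSSCG00000015716, chr15:24502543-24545217, plus strand) had 0 counts in all NC libraries and in H8 replicates 1 and 2, 28 counts in H8 replicate 3, and 45, 4 and 212 counts in H24. These are 0.06 FPKM in H8 replicate 3 and 0.11, 0.01 and 0.55 FPKM in H24, so H24 replicate 2 lies below the 1 H8 library with counts. With the NC libraries set to a floor of 3 counts each, the mean CPM of H24 was at least 32.2-fold higher, and at least 8.82-fold higher without H24 replicate 3. The call in H24/NC (edgeR adjusted p = 0.18) rests on libraries at 0, so its fitted fold change depends on the prior count, and without H24 replicate 3 the gene was under the filter on low values. Neither limma on log2(FPKM + 0.1) nor on log2(FPKM + 1) called it.

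CD36, a class B scavenger receptor that also takes up long-chain fatty acids and is made by adipocytes, endothelium and platelets as well as macrophages, did not pass the test. The gene (ENSSSCG00000015405, chr9:99684189-99782278, minus strand) had 2.84, 4.04 and 2.72 FPKM in NC, 5.56, 3.75 and 2.57 in H8 and 8.56, 1.82 and 26.4 in H24. H24 held both the highest and the lowest value of the 9 libraries. The log2 fold change was 0.44 (95% interval -0.30 to 1.18) in H8/NC and 1.91 (95% interval -0.05 to 3.86, edgeR adjusted p = 0.37) in H24/NC. The H24/NC value was 0.64 without H24 replicate 3, while without H24 replicate 2 it was 2.41 and called.

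A related gene lies next to CD36 on the same strand and may share reads with it (ENSSSCG00000030638, chr9:99600589-99670215, described in the table as platelet glycoprotein 4-like, after the other name of CD36). It had 0.82, 0.29 and 0.29 FPKM in NC, 6.52, 0.68 and 3.17 in H8 and 6.19, 2.49 and 20.4 in H24, the same order of libraries as MSR1 within H8 and H24. It was up-regulated in H8/NC (log2 fold change 2.99, SE 0.80) and in H24/NC (4.36, SE 0.89, and 3.18 without H24 replicate 3). With the counts of both genes summed, the log2 fold change in H24/NC was 2.30 and the sum was called, which was not recomputed without H24 replicate 3. How the deposited counts divide reads between the 2 genes was not tested, so the level of CD36 is uncertain.

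TREM2, a lipid-binding receptor of macrophages that signals through the adaptor TYROBP, was low in NC and up-regulated in both diet groups against it. The gene (ENSSSCG00000039270, chr7:36464034-36471393, minus strand) had 1.03, 0.28 and 0.34 FPKM in NC, 11.3, 0.90 and 5.65 in H8 and 9.92, 6.44 and 84.2 in H24. H8 replicate 2 was below NC replicate 1, and H8 replicate 1 was above 2 of the 3 H24 libraries. TREM2 had a log2 fold change of 3.54 (SE 0.91, edgeR adjusted p = 0.21) in H8/NC, which was 2.66 without H8 replicate 1 and 4.33 without NC replicate 1. In H24/NC it was 5.92 (SE 1.23, edgeR adjusted p = 0.13), and it was 3.87 without H24 replicate 3 and 6.71 without NC replicate 1.

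CD68, a late endosomal and lysosomal glycoprotein and the usual histological marker of macrophages, was up-regulated in both diet groups. The gene (ENSSSCG00000017956, chr12:52874754-52877704, plus strand) had 6.23, 4.36 and 4.10 FPKM in NC, 39.6, 5.40 and 23.5 in H8 and 65.3, 38.7 and 616 in H24. H8 replicate 2 lay inside the NC range, and all H24 libraries were above all NC libraries. CD68 had a log2 fold change of 2.32 (SE 0.61, edgeR adjusted p = 0.21) in H8/NC and 5.60 (SE 1.17, edgeR adjusted p = 0.13) in H24/NC. Without H24 replicate 3 the latter was 3.38, and without H8 replicate 1 the former was 1.65, both still called. CD68 starts inside the span of EIF4A1 on the same strand and lies within that of KDM6B. The log2 fold changes of these genes in H24/NC were 0.29 and -0.13, and neither was called in any comparison.

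GPNMB, a transmembrane glycoprotein of lysosomes and melanosomes known from lipid-laden macrophages, reached the highest level of the 9 genes. The gene (ENSSSCG00000032241, chr9:92037509-92071499, plus strand) had 7.22, 4.55 and 7.01 FPKM in NC, 112, 14.2 and 49.6 in H8 and 120, 56.5 and 2700 in H24. All diet libraries were above all NC libraries, whereas H8 and H24 overlapped. Its log2 fold change was 3.33 (SE 0.66, edgeR adjusted p = 0.17) in H8/NC and 7.25 (SE 1.67, edgeR adjusted p = 0.14) in H24/NC. The H24/NC value was 3.78 without H24 replicate 3, and the H8/NC value 2.45 without H8 replicate 1, both still called. In H24 replicate 3 GPNMB was the 8th most abundant gene by FPKM, and it held 0.888% of the counts of that library. DESeq2 gave no p for GPNMB in H24/NC and H24/H8, since its outlier filter removed the gene.

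LGALS3 encodes galectin-3, a carbohydrate-binding lectin secreted by macrophages and also made by smooth muscle and other cells. The gene (ENSSSCG00000005055, chr1:184478643-184496155, plus strand) had 11.9, 10.2 and 8.66 FPKM in NC, 82.3, 22.4 and 43.0 in H8 and 143, 79.0 and 1454 in H24. As for GPNMB, every diet library exceeded every NC library. Its log2 fold change was 2.37 (SE 0.42, edgeR adjusted p = 0.14) in H8/NC and 5.75 (SE 1.22, edgeR adjusted p = 0.13) in H24/NC. Leaving out H24 replicate 3 gave 3.40 in H24/NC, and leaving out H8 replicate 1 gave 1.79 in H8/NC, both still called. In H24 replicate 3, LGALS3 was the 19th and CD68 the 54th most abundant gene by FPKM.

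PLIN2 (adipophilin), which coats lipid droplets in many cell types, was the member with the smallest differences. The gene (ENSSSCG00000035863, chr1:203683875-203713121, plus strand) had 7.26, 12.5 and 6.76 FPKM in NC, 7.06, 10.1 and 6.14 in H8 and 7.33, 4.04 and 35.7 in H24. The first 2 H24 libraries lay within or below the NC range, and H24 replicate 3 alone was above it. The log2 fold change was -0.04 (95% interval -0.81 to 0.74) in H8/NC and 0.80 (95% interval -1.03 to 2.64) in H24/NC. Its direction in H24/NC rested on H24 replicate 3, without which it was -0.68. In H8/NC the direction also turned without NC replicate 2 (0.33), H8 replicate 1 (0.04) or H8 replicate 3 (0.14).

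**Figure D3:**
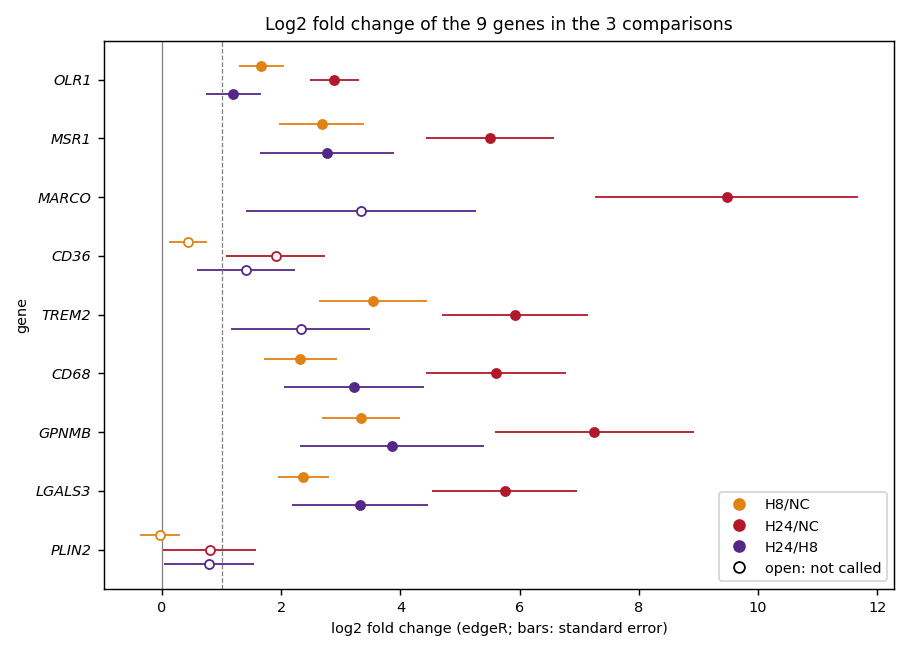
Log2 fold change from edgeR (points) with its standard error (bars) for the 9 genes in H8/NC (orange), H24/NC (red) and H24/H8 (purple), filled where called, with the threshold of 1 dashed. The H24/NC point lies right of the H8/NC point for all 8 genes with both. The smallest gap is that of PLIN2 (0.80 against -0.04, an order that turns without H24 replicate 3). The largest is that of GPNMB (7.25 against 3.33), which also rests on H24 replicate 3. Without it GPNMB in H24/NC was 3.78, a smaller gap than that of CD68 (3.38 against 2.32). The MARCO point in H24/NC (9.48) depends on the prior count because NC is at 0.

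Libraries of a group that do not overlap with those of the other group give another view of the same values. In H24/NC 7 of the 9 members were higher in every H24 library than in every NC library, where 12.8% of all genes tested were, and 6 of 8 when MARCO is not counted. In H8/NC 3 of the 8 tested members (OLR1, GPNMB and LGALS3) were higher throughout, against 6.91% of all genes. In H24/H8 OLR1 alone was, against 15.5% of all genes, so the share of the members (1 of 9) was near the background.

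The step from 8 to 24 weeks depended on single libraries. The log2 fold change in H24/H8 was 2.76 (SE 1.13) for MSR1, 3.22 (SE 1.18) for CD68, 3.85 (SE 1.54) for GPNMB and 3.32 (SE 1.14) for LGALS3. For TREM2 it was 2.33 (95% interval -0.42 to 5.07), for MARCO 3.34 (95% interval -1.20 to 7.88), for CD36 1.41 (95% interval -0.53 to 3.35) and for PLIN2 0.78 (95% interval -0.996 to 2.56). Without H24 replicate 3 none of the 8 members still tested was called, where 3.75% of all genes tested were up-regulated. The values were then 0.99 for MSR1, 1.04 for CD68, 0.43 for GPNMB, 1.01 for LGALS3, 0.32 for TREM2, 0.18 for CD36 and -0.66 for PLIN2. Without H8 replicate 2 OLR1 alone was called, and without H8 replicate 3 MARCO alone. In these fits 556 of 14892 and 617 of 14752 genes tested were up-regulated. Without H8 replicate 3, MARCO was at 0 in the remaining H8 libraries and passed the filter only through H24. It therefore had to be higher there, and its log2 fold change of 9.33 depends on the prior count. Without H8 replicate 1 the values were 3.80 for MSR1, 3.88 for CD68 and 4.73 for GPNMB, all still called.

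H24/NC behaved differently when H24 replicate 3 was left out. OLR1, MSR1, TREM2, CD68, GPNMB and LGALS3 remained called, and all 6 then passed the adjusted threshold of edgeR (adjusted p = 0.0046 to 0.020). Of all 14578 genes then tested, 6.49% were up-regulated and 306 (2.10%) passed the adjusted threshold. In H8/NC, leaving out H8 replicate 2 put CD68, GPNMB and LGALS3 past the adjusted threshold (adjusted p = 0.045 in edgeR for each), as it did 0.257% of all genes tested. H8 replicate 2 was the lowest H8 library for these genes. Leaving out any other library of H8/NC put 0 members past the threshold. For the 6 genes in H24/NC the standard error of the log2 fold change was 0.41 to 1.67 with all libraries and 0.29 to 0.58 without H24 replicate 3.

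**Figure D4:**
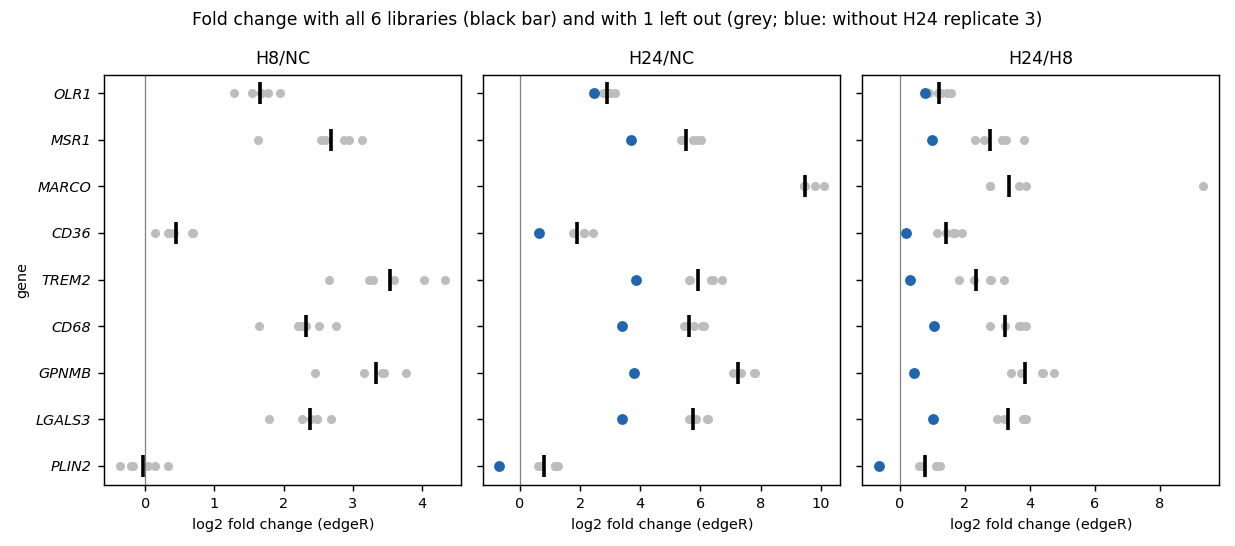
Log2 fold change from edgeR for each gene with all 6 libraries of the comparison (black bar) and with 1 library left out (grey, blue for H24 replicate 3). In H24/NC the blue points are the lowest of each row but stay above 0 for all genes shown except PLIN2 (-0.68). In H24/H8 they lie between -0.66 (PLIN2) and 1.04 (CD68), and MARCO has no blue point because it was then under the filter.

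The libraries of a diet group differed widely, and the order was shared by many of the genes. Within H24, replicate 3 was highest and replicate 2 lowest for 8 genes, and for OLR1 replicate 1 was lowest. Within H8, replicate 1 was highest and replicate 2 lowest for MSR1, TREM2, CD68, GPNMB and LGALS3. OLR1 and PLIN2 were instead highest in H8 replicate 2. The summed macrophage markers were also highest in replicate 1 and lowest in replicate 2 of H8, and highest in replicate 3 and lowest in replicate 2 of H24. Their part in the results of the members was not tested.

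CD68 was used as a reference within each library to describe how the members vary relative to each other. This ratio was added after the values had been seen and has no test. MSR1 was 0.0515 to 0.0892 of CD68 in the 9 libraries, a 1.73-fold spread, although its own FPKM spread 144-fold. LGALS3 was 1.83 to 2.36 times CD68 in 8 libraries and 4.14 times in H8 replicate 2. TREM2 ran from 0.0645 in NC replicate 2 to 0.286 in H8 replicate 1. GPNMB ran from 1.05 in NC replicate 2 to 4.38 in H24 replicate 3, the library in which it was highest.

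OLR1, CD36 and PLIN2 did not keep a steady ratio to CD68. OLR1 was 0.0453 of CD68 in H24 replicate 3 and 1.76 times CD68 in H8 replicate 2. CD36 ran from 0.0428 to 0.928 and PLIN2 from 0.0580 to 2.87, in both cases lowest in H24 replicate 3 and highest in NC replicate 2. NC replicate 2 was also the library with the highest summed FPKM of the 8 adipocyte markers (51.1, against 19.3 and 24.7 in the other NC libraries) and of the 6 matched endothelial markers (151, against 58.7 and 78.7). None of either list was at 0 in every library, and their part in the levels of CD36 and PLIN2 was not tested.

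**Figure D5:**
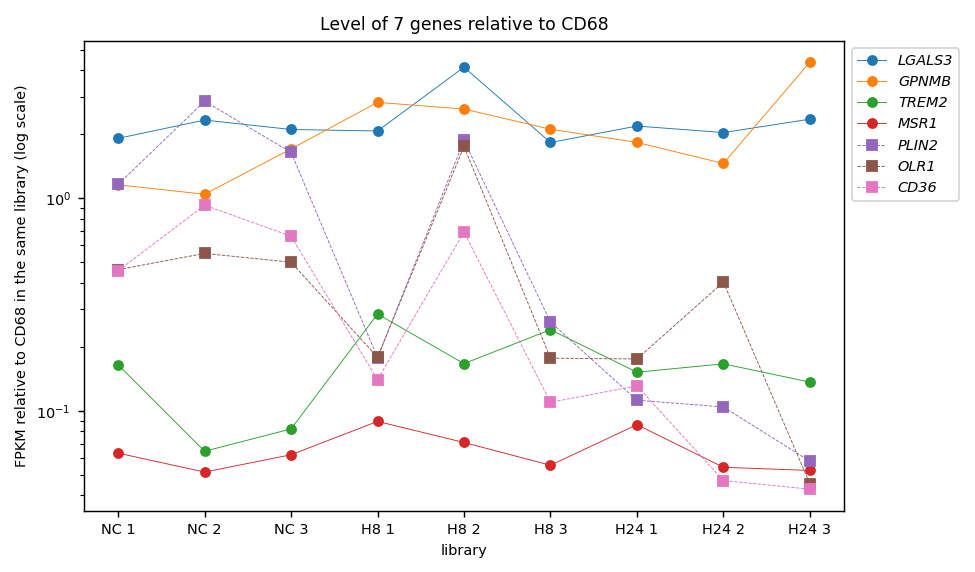
FPKM of 7 genes divided by that of CD68 in the same library (log axis) for the 9 libraries, where thin lines join points of a gene and carry no order. MSR1 stays between 0.0515 and 0.0892, whereas PLIN2 runs from 0.0580 to 2.87, OLR1 from 0.0453 to 1.76 and CD36 from 0.0428 to 0.928.

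The members were also set against the geometric mean of 10 macrophage markers in the same library. The log2 ratio of MSR1 was -2.50 ± 0.20 in NC, -1.85 ± 0.44 in H8 and -1.89 ± 0.36 in H24 (SD, n = 3 each). That of CD68 was 1.59 ± 0.27, 1.97 ± 0.36 and 2.11 ± 0.29. GPNMB went from 1.94 ± 0.11 in NC to 3.30 ± 0.33 in H8 and 3.29 ± 1.12 in H24. Its H24 mean rests on replicate 3: replicates 1 to 3 were at 2.84, 2.47 and 4.57, against 3.61, 2.96 and 3.32 in H8. TREM2 went from -1.80 ± 0.75 to -0.18 ± 0.73 and -0.62 ± 0.16. LGALS3 went from 2.67 ± 0.34 to 3.30 ± 0.27 and 3.24 ± 0.38. PLIN2 went the other way, from 2.41 ± 0.81 to 0.80 ± 1.49 and -1.40 ± 0.25, as did CD36, from 0.98 ± 0.64 to -0.21 ± 1.09 and -1.85 ± 0.79. OLR1 was 0.60 ± 0.33 in NC, 0.58 ± 1.55 in H8 and -0.65 ± 1.32 in H24, where replicate 3 was lowest (-2.02). These are descriptions with no test, and the markers themselves differ between the groups.

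The order of levels changed between groups. In NC the mean FPKM was highest for LGALS3 (10.3), followed by PLIN2 (8.83), GPNMB (6.26), CD68 (4.90), CD36 (3.20), OLR1 (2.44), TREM2 (0.55), MSR1 (0.29) and MARCO. The ranges of neighbours overlapped except between CD68 and CD36, OLR1 and TREM2, and MSR1 and MARCO. In H8 and H24 GPNMB (58.7 and 959), LGALS3 (49.2 and 559) and CD68 (22.8 and 240) led, and their ranges overlapped. The H24 means rest on H24 replicate 3: over replicates 1 and 2 they were 88.2 for GPNMB, 111 for LGALS3, 52.0 for CD68, 13.5 for OLR1, 8.18 for TREM2, 5.68 for PLIN2, 5.19 for CD36, 3.86 for MSR1 and 0.06 for MARCO. GPNMB exceeded LGALS3 in 1 of the 3 H24 libraries. Together the 9 genes held 0.0112% to 0.0152% of all counts in NC, 0.0701%, 0.0196% and 0.0350% in H8 and 0.0903%, 0.0454% and 1.27% in H24.

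Other scavenger receptors formed a list of 22. For this list and those below, the up-regulated share of all genes tested was 9.95% in H24/NC, 5.11% in H8/NC and 7.22% in H24/H8. The down-regulated share was 1.52%, 2.27% and 3.05%. Without H24 replicate 3 the up-regulated share was 6.49% in H24/NC and 3.75% in H24/H8. Of the 20 tested in H24/NC, 10 were up-regulated and none down-regulated, with a median log2 fold change of 1.20. With H24 replicate 3 left out, 7 of 19 were up-regulated and the median was 0.52. CLEC7A (dectin-1, a receptor for fungal glucans) had a log2 fold change of 6.36, CD163 (the haemoglobin scavenger receptor) of 3.80 and CD14 (a lipopolysaccharide co-receptor) of 3.35. These were 4.30, 2.53 and 2.07 without H24 replicate 3, all still called. In H8/NC 2 of 19 were up-regulated: CLEC7A (log2 fold change 3.95) and COLEC12, a class A member of endothelium, which is named here after its values were seen. CXCL16, a membrane-bound chemokine that binds oxidised LDL, had a log2 fold change of 0.65 in H8/NC, below the threshold, and of 1.76 in H24/NC (1.20 without H24 replicate 3). In H24/H8 9 of 20 were up-regulated, and 3 of 20 without H24 replicate 3.

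The listed adaptors, kinases, phosphatases and other partners of TREM2 signalling were up-regulated in H24/NC. This held for 11 of 11, with a median log2 fold change of 3.79, and for 10 of 11 without H24 replicate 3 (median 2.73). TYROBP, the adaptor protein of TREM2, had 8.80, 5.05 and 5.90 FPKM in NC, 40.3, 8.15 and 22.5 in H8 and 77.7, 53.8 and 493 in H24. Its log2 fold change was 1.96 in H8/NC and 4.97 in H24/NC. VAV1, a guanine nucleotide exchange factor, changed by 2.60 and 5.19 on the log2 scale, INPP5D, the inositol phosphatase SHIP1, by 1.46 and 3.79, and the Src family kinase LYN by 1.52 and 2.94. In H24/NC without H24 replicate 3 the values were 3.29 for TYROBP, 3.50 for VAV1, 2.76 for INPP5D and 1.86 for LYN, all still called. In H8/NC 7 of 11 were up-regulated and in H24/H8 8 of 11, but 1 of 11 in H24/H8 without H24 replicate 3. These genes are expressed in most myeloid cells, and TYROBP and CD14 are also on the macrophage marker list, of which 10 of 11 were up-regulated in H24/NC with and without H24 replicate 3.

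Genes of lipid droplets and of lipid-associated macrophages formed another list. Of 27 tested, 13 were up-regulated in H24/NC and none down-regulated (median log2 fold change 1.17), and without H24 replicate 3 there were 10 up and 1 down (median 0.42). APOE, the apolipoprotein that macrophages secrete for cholesterol efflux, had 23.8 to 47.5 FPKM in NC, 494, 65.8 and 287 in H8 and 610, 323 and 3596 in H24. Its log2 fold change was 3.24 in H8/NC and 5.54 in H24/NC. SPP1 (osteopontin) changed by 2.25 and 5.43 and the lysosomal protease CTSD (cathepsin D) by 1.40 and 4.26. In H24/NC without H24 replicate 3 the values were 3.83 for APOE, 3.78 for SPP1 and 2.60 for CTSD, all still called.

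In H8/NC 5 of these 27 were up-regulated and 2 down-regulated. The genes that fell were PLIN1, the perilipin of adipocytes, with 3.59, 16.5 and 5.91 FPKM in NC and 0.03, 0.08 and 0 in H8, and DGAT2, which makes triglycerides, with 4.46, 19.4 and 17.4 FPKM in NC and 0.66, 0.61 and 0.34 in H8. PLIN1 is on the adipocyte marker list too, whose sum was 19.3 to 51.1 FPKM in NC and 4.55 to 5.34 in H8, and 4 of its 6 tested genes were down-regulated in H8/NC. The part of adipose tissue in these levels was not tested. In H24/H8 11 of 27 were up-regulated, and 4 of 27 without H24 replicate 3. Among these 4 were PLIN1 (log2 fold change 5.83 without that library), DGAT2 (2.94) and CTSD (1.19). PLIN1 had 5.58, 0.13 and 0.21 FPKM in H24 replicates 1 to 3.

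Of 17 transcription factors linked to macrophage lipid handling, 7 were up-regulated and 1 down-regulated in H24/NC, with a median log2 fold change of 0.85. Leaving out H24 replicate 3 gave 6 up and 1 down with a median of 0.36. SPI1 (PU.1), the master factor of myeloid cells, had 1.66, 2.45 and 2.44 FPKM in NC, 14.9, 4.31 and 10.0 in H8 and 19.3, 16.6 and 164 in H24, and did not overlap between any of the groups. Its log2 fold change was 2.26 in H8/NC, 4.91 in H24/NC and 2.59 in H24/H8, and without H24 replicate 3 it was 3.01 in H24/NC and 0.73, no longer called, in H24/H8. CEBPA, a factor of myeloid cells and adipocytes, changed by 4.26 in H24/NC (2.99 without H24 replicate 3), and in H8/NC 3 of 17 were up-regulated, SPI1 and CEBPA among them. The gene that fell in H24/NC was PPARA (log2 fold change -1.43, and -1.21 without H24 replicate 3), the nuclear receptor of fatty acid oxidation, which is named here after its values were seen. In H24/H8 5 of 17 were up-regulated and 1 was down-regulated, against 2 and 0 without H24 replicate 3.

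The genes with the most similar pattern were found among the 10711 genes whose mean FPKM reached 1, by the root-mean-square difference over the 9 libraries between log2(FPKM + 0.1) profiles centred on NC. For MSR1 these were C1QC (0.18), a chain of complement C1q, and CYTIP (0.20). For CD68 they were ST14 (0.27) and LCP1 (0.29), for LGALS3 CD48 (0.25) and LCP1 (0.29), and for TREM2 APOE (0.25) and PLTP (0.34). For GPNMB they were ACP5 (0.32), the tartrate-resistant acid phosphatase of osteoclasts and macrophages, and CYP7A1 (0.50), known as the rate-limiting enzyme of bile acid synthesis in liver. CYP7A1 had a mean of 0.04 FPKM in NC, 0.72 in H8 and 30.7 in H24, with 89.1 in H24 replicate 3.

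OLR1 was nearest to RUNX1 (0.36) and ICOSLG (0.44), CD36 to BCAT1 (0.30) and the mannose receptor MRC1 (0.33), and PLIN2 to FRAT2 (0.36) and PRR5 (0.37). For MARCO, GGH (0.20) and NPC2 (0.22) came nearest on this scale, on which values near 0 FPKM hardly vary. All these differences are in log2 units and describe the same 9 libraries, among them H24 replicate 3, and have no test.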

How the data were processed

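RNA-seq of 9 abdominal aorta samples (3 NC, 3 H8, 3 H24, grouped by the sample labels) was analysed. The authors mapped reads to Sscrofa11.1 with HISAT2 2.0 and computed FPKM values with StringTie 1.3.0. The submitters' processing notes also list Bowtie 0.12.2 and the mouse build mm8, with no role given. The deposited table of 21357 genes holds FPKM and whole-number estimated counts per library, and how the authors obtained the counts, the annotation release and the strandedness of the kit are not given in the sources used here.

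Counts were tested with edgeR 4.0.16 in R 4.3.3 (read with data.table version 1.17.8): TMM, quasi-likelihood test, two-sided, over all genes whose mean FPKM in the 6 libraries compared was 0.1 or more. A gene was called at a log2 fold change beyond 1 and an unadjusted p under 0.05, the thresholds of the study's methods, and separately at a Benjamini-Hochberg adjusted p under 0.05. Alternatives were DESeq2 1.42.0, limma 3.58.1 on log2(FPKM + 0.1) and log2(FPKM + 1), other filters and scalings, a fit of all 9 libraries together, a replicate block and each library left out. The method was tested on simulated counts in which 200 genes had a log2 fold change of 2 up or down. The call recovered 94% of them in H24/NC, 98.5% in H8/NC and 91% in H24/H8, with 498, 238 and 560 false calls. The adjusted threshold recovered 63.5%, 89% and 61%, with 8, 14 and 4 false calls. No simulated library stood apart as H24 replicate 3 does, so these rates may not hold for the comparisons with H24. The labels number the samples of a group without naming pigs, so p-values measure the spread between these samples, which may in part be technical.

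The 9 genes and the other gene lists were chosen with earlier results of these data known. Named from each other list were at most 3 genes with the smallest p in H24/NC and 2 in H8/NC, and for each member the 2 nearest genes. A gene that this rule names is not reported here. The markers CYBB, CLDN5, EGFL7 and PF4 were not matched by symbol, and MS4A7, listed at 0 in H8 replicate 2, was left out of the geometric mean. Promoter and protein sequences were not analysed here.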

Additional observations from a re-analysis of the deposited data

How the results depend on the processing

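Members called up numbered 7 in H24/NC and 6 in H8/NC, and stayed within 6 to 8 and 5 to 6 under every alternative run, leave-one-out included (6 to 8 and 6). An equal count did not always mean the same genes. In H24/NC the 7 of DESeq2 held CD36 and not GPNMB. The 7 of the fit of all 9 libraries held CD36 and not MARCO. In H24/H8 the count of 5 fell to 3 with limma on log2(FPKM + 0.1) or log2(FPKM + 1) and with the replicate block, and was 0 to 5 with a library left out (1 without H8 replicate 2 or 3, 0 without H24 replicate 3). The 1 without H8 replicate 3 was MARCO, whose H8 libraries were then all at 0. Members past the adjusted threshold, 0 in each comparison, numbered 6, 6 and 2 in H24/NC, H8/NC and H24/H8 with DESeq2, and 0 to 6, 0 to 3 and 0 with a library left out. The 6 of DESeq2 in H24/NC include MARCO, which is at 0 in NC. With a library left out PLIN2 ranged from -0.68 to 1.25 in H24/NC, from -0.36 to 0.33 in H8/NC and from -0.66 to 1.23 in H24/H8. It reversed without H24 replicate 3 (-0.68 in H24/NC, -0.66 in H24/H8) and in H8/NC without NC replicate 2 (0.33), H8 replicate 1 (0.04) or H8 replicate 3 (0.14). CD36 was called in H24/NC with no filter (log2 fold change 1.90), with DESeq2 (1.90) and with all 9 libraries in one edgeR fit (1.91). The cause was not tested. Scaling by library size only and summing CD36 with its neighbour were chosen after seeing the data. The former moved the median log2 fold change of all genes to -0.13 in H8/NC and 0.24 in H24/H8, and calls up and down from 733 and 326 to 576 and 459, and from 1068 and 451 to 1447 and 290, but changed no member's direction or call.

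The labels do not pair the pigs, and no pairing by replicate number was seen. Deviations of same-numbered libraries correlated at -0.08 to 0.11 over 11239 genes, and in no comparison were all above 0.1. With so few libraries in each group, these values cannot exclude a pairing. With the replicate block the count of members called was 7 in H24/NC, 6 in H8/NC and 3 in H24/H8 (MSR1, MARCO and CD68), and 0 members passed the adjusted threshold. Of the members, MARCO alone was at 0 counts in any library. Whether depth limits the others was not tested.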
